A study of Mus musculus with 27 samples.

Results

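The immediate early genes Fos, Fosb, Jun, Junb, Atf3, Egr1, Nr4a1, Ier2, Zfp36 and Dusp1 were followed across mouse ovaries. They were taken as the rows of the gene count table whose Ensembl identifiers carry these symbols in GENCODE M21, which gave 10 of the 51789 genes in the table, and all 10 passed the filter on low counts in every comparison. Polyadenylated RNA of whole ovary was sequenced with a Lexogen QuantSeq kit, a method that reads a tag near the 3′ end of each transcript. The 27 libraries came from 2 experiments. Experiment 1 held 5 libraries from young untreated mice, 4 from aged untreated mice and 4 from aged mice treated with TRi-1, which blocks cytosolic thioredoxin reductase. Experiment 2 held 5 libraries from young untreated mice, 5 from aged untreated mice and 4 from aged mice treated with auranofin, a gold compound that blocks the same enzyme family. The young groups and the untreated aged groups are the untreated controls, no young mice were treated, and the labels state no strain, age, dose or duration. Each library has a replicate number but no statement on separate animals, so p-values measure the spread between these libraries.

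Immediate early genes are transcribed within minutes of a stimulus from factors that are already in the cell, without new protein synthesis, and their mRNAs are short-lived. Kinases of the MAP kinase family and the factors SRF, ELK1 and CREB act on their promoters, and several of the products are themselves transcription factors that act on later genes. In the ovary the luteinizing hormone surge induces members such as Egr1 and Nr4a1 in granulosa cells, macrophages use the same genes in their response to inflammatory signals, and handling or enzymatic dissociation of a tissue is also known to induce them.

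Library totals ran from 6460903 to 14814381 counts. Levels are in CPM, the count scaled to a common library size. Changes come from edgeR on the log2 scale with ± 1 standard error, and p was adjusted over all genes tested. Levels of different genes are not compared with each other. In the aged untreated ovaries the granulosa markers Amh and Fshr and the oocyte marker Zp2 had no count in either experiment, and Amh had none in the young ovaries of experiment 2. The other granulosa and oocyte markers were detected in each untreated group. The summed level of 5 macrophage markers ran from 532 to 793 CPM in young and from 4375 to 7522 CPM in aged ovaries of experiment 1, and from 422 to 1067 against 3207 to 6372 CPM in experiment 2. Hepatocyte markers differed between experiments and between libraries. Their sum in young libraries of experiment 1 ran from 139 to 409 CPM, against a median of 9.98 CPM in experiment 2. In untreated aged libraries it ran from 0.862 CPM in replicate 1 to 1509 CPM in replicate 3 of experiment 1. In those of experiment 2 it ran from 1.95 to 8.12 CPM. Some libraries also stood apart by other markers. Young replicate 3 of experiment 2 held 43.4 CPM of granulosa markers, below the other young libraries. Auranofin replicate 3 held 936 CPM of macrophage markers, below the other auranofin libraries.

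The sequences of most of these genes share features that bear on how fast mRNAs are made and destroyed. Short-lived mRNAs can be targets of decay through AU-rich stretches of the 3′ UTR, to which tristetraprolin, the product of Zfp36, binds. Decay of the members' mRNAs was not measured here. The stretches below are shown because one member of the set encodes the protein that reads them. Each is 27 bases of the 3′ UTR in GRCm38, read 5′ to 3′ on the strand of the gene, and capitals mark the longest match found among TTATTTATT, TATTTAT and ATTTA.
Fos, chr12:85477104-85477130, plus strand: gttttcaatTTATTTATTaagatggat
Fosb, chr7:19303327-19303353, minus strand: cacccccagcTATTTATccctttcctg
Jun, chr4:95049080-95049106, minus strand: tgcttgtgcaTATTTATaatagcgttc
Junb, chr8:84977128-84977154, minus strand: tatatttgtgtATTTAacagggagggg
Zfp36, chr7:28376952-28376978, minus strand: atgacgactTTATTTATTgtattaaga
Dusp1, chr17:26506160-26506186, minus strand: agctggtccTTATTTATTtaacacccc
Atf3, chr1:191170339-191170365, minus strand: aaatattactTATTTATcccagtattc
Nr4a1, chr15:101274691-101274717, plus strand: gacagattctgATTTAtatttgtgtat

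TATTTAT was found in the 3′ UTR of 6 of the 10 members, against 29.3% of the 14853 tested protein-coding genes with a 3′ UTR. Zfp36 and Dusp1 held 3 matches each and Fos held 2. The shorter ATTTA was found in 9 of 10, against 68.7%, and Ier2 was the member without one. These motifs overlap each other, and only the coding strand was searched. The members' 3′ UTRs were not longer than usual, with a median of 794.5 against 1132 bases, and per 1000 bases they held 1.10 TATTTAT matches against 0.289 over all these genes. Most of the genes are also compact, as genes that must be transcribed fast often are. The median span of the members was 4698.5 bases against 23955 for 14890 tested protein-coding genes, and Jun and Ier2 have a single exon. Dusp1 and Atf3 had the longest spans, 56539 and 47744 bases, between the outermost ends of all annotated transcripts. Their RefSeq promoters lie inside these spans. That of Dusp1 lies at 26508473 to 26508722 in a gene annotated from 26505590 to 26562128. That of Atf3 lies at 191183334 to 191183583 in a gene annotated from 191170296 to 191218039. For these genes the span is therefore not the length transcribed from the RefSeq start. A match describes these letters and is not evidence of a working site.

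The promoters of 4 members are shown because these form 2 pairs of related genes of which Junb and Zfp36 passed the test with age in both experiments and Jun and Dusp1 in neither. Junb and Jun encode close relatives, and Zfp36 and Dusp1 both encode feedback inhibitors. Each run is the 250 bases before the annotated start in RefSeq (GRCm38.p6), 5′ to 3′ on the strand of the gene, and capitals mark the CArG box and the motif TGACG of the cAMP response element on either strand.
Junb, chr8:84978749-84978998, minus strand: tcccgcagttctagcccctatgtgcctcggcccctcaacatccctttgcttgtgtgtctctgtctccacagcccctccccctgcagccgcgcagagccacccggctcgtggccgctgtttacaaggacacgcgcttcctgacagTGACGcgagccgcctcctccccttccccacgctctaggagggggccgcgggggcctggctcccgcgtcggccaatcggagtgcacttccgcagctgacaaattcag
Jun, chr4:95052223-95052472, minus strand: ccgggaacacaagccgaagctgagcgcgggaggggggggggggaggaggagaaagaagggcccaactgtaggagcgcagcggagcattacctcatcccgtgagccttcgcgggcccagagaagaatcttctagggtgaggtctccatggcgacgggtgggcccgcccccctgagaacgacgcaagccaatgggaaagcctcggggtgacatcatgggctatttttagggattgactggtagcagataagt
Zfp36, chr7:28379229-28379478, minus strand: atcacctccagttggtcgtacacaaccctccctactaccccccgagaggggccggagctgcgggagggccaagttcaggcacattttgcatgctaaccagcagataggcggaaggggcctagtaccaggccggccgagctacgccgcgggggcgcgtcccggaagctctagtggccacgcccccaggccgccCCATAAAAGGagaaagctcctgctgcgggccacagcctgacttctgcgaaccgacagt
Dusp1, chr17:26508473-26508722, minus strand: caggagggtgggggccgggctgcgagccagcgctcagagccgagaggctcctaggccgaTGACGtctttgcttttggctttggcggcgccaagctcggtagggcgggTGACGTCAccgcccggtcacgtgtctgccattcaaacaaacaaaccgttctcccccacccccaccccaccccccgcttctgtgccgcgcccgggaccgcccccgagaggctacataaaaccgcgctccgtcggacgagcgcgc

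Of the 8 members with a promoter compared, 1 held a CArG box, the element that SRF binds, against 1.47% of 32851 promoters of the same length. That promoter was Zfp36, with the first base at -58. TGACG was found in 6 of 8, against 17.8% of promoters, and Jun and Zfp36 were those without it. The full element TGACGTCA, which contains TGACG on both strands, was found in Dusp1 at -143 and in 1.55% of all promoters. GGGCGG, a motif of Sp1, was found in 7 of 8 against 32.7%, TATAAA in Fos alone against 12.4%, and the AP-1 motif TGANTCA in 0 of 8 against 6.75%. Both strands were searched for each motif, and matches other than those of TGACG within the full element were not checked for overlap. Variants of a motif and bases farther upstream were not searched, so a motif not found here is not evidence that a site is absent.

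The first comparison asks how these genes differ between untreated aged and untreated young ovaries. In both experiments Junb and Zfp36 rose with age, Atf3 rose in experiment 1, and no member fell. Fosb also passed the test in experiment 2, but it entered that test only through the aged libraries, where it is high, so its call is given as a description. In experiment 1 this made 3 of 10 members, where 18.5% of all 16028 genes tested rose and 16.4% fell, 34.9% in either direction. In experiment 2 Junb and Zfp36 passed beside Fosb, where 5.86% of 16309 genes rose and 4.59% fell. The median log2 change of the members was 0.86 and 1.11 in experiments 1 and 2, beside 0.02 and -0.03 over all genes tested. Fos and Jun, the best known of the group, did not pass the test in either experiment.

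**Figure D1:**
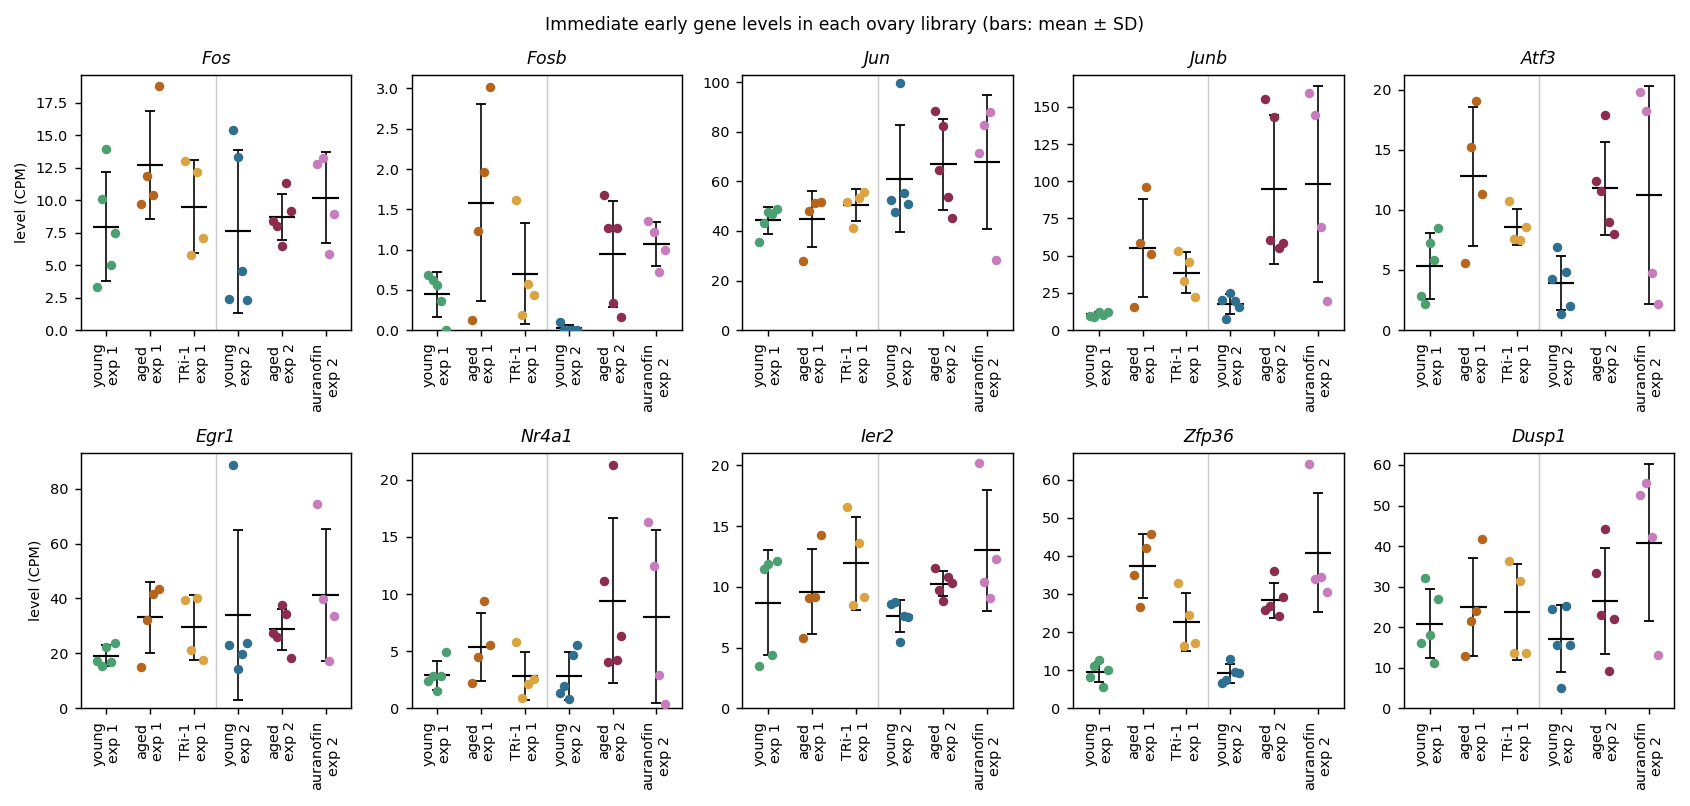
Level of each gene in CPM (vertical axis, linear, starting at 0) in the 6 groups, with 1 point per library and the mean ± SD of 4 or 5 libraries as bars. Junb and Zfp36 lie higher in both aged untreated groups than in every young library of their experiment, while Jun and Dusp1 overlap between all groups of an experiment.

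Among the AP-1 subunits, Junb (ENSMUSG00000052837, chromosome 8, 84974484 to 84978718, minus strand, GRCm38) encodes a JUN-family partner of FOS proteins. Its level in the young libraries of experiment 1 was 9.73, 8.99, 12.4, 10.04 and 12.3 CPM. In the aged libraries it was 15.5, 58.3, 96.1 and 51.1 CPM. Aged replicate 1 lay well below the other aged libraries but above every young one, so the groups did not overlap. The log2 change was 2.39 ± 0.38, or 5.23-fold (edgeR adjusted p = 0.00018). In experiment 2 the young libraries stood at 20.3, 7.21, 25.1, 19.3 and 15.4 CPM, and the aged ones at 155, 60.8, 143, 55.3 and 58.7 CPM. Here too the groups did not overlap, and 2 aged libraries lay far above the other 3. The change was 2.45 ± 0.51, or 5.45-fold (edgeR adjusted p = 0.0064). The difference between both age effects was 0.06 ± 0.67 (95% interval -1.30 to 1.43). With 3 libraries of experiment 1 left out, the change there was 2.00. These were TRi-1 replicate 1, replicate 3 of the aged and replicate 5 of the young group, called the 3 left-out libraries from here on. Each held the highest hepatocyte marker sum of its group, at 367, 1509 and 409 CPM.

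Jun (ENSMUSG00000052684, chromosome 4, 95049034 to 95052222, minus strand) encodes c-Jun, the founding JUN-family subunit. Its levels in experiment 1 were 35.4, 43.4, 47.5, 46.9 and 48.9 CPM in young and 27.8, 48.3, 51.3 and 51.6 CPM in aged libraries. In experiment 2 they were 52.4, 47.6, 99.6, 55.2 and 50.8 CPM in young and 88.5, 64.6, 82.3, 53.6 and 45.4 CPM in aged libraries. The groups overlapped in both, and the changes of 0.03 (95% interval -0.38 to 0.44) and 0.13 (95% interval -0.52 to 0.79) did not pass the test. The sign of the first value turned with the scaling, at -0.01 with RLE size factors.

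Because Junb and Jun are read from the same libraries, their ratio does not depend on library scaling. This ratio was chosen after the levels had been seen, so it is described without a test. The log2 ratio of Junb to Jun was 0.08 ± 0.73 (SD, n = 4) in aged and -2.06 ± 0.18 (SD, n = 5) in young ovaries of experiment 1, with no overlap. In experiment 2 it was 0.39 ± 0.42 (SD, n = 5) against -1.86 ± 0.53 (SD, n = 5), again with no overlap. The ratio was higher with age by 2.14 and 2.25 on the log2 scale, and every aged untreated library lay above every young library of its experiment.

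Fosb (ENSMUSG00000003545, chromosome 7, 19302696 to 19310051, minus strand) encodes a FOS-family subunit, and its counts were low. In experiment 2 the young libraries together held 1 count, a level of 0.1003 CPM in replicate 1 and 0 in the other 4, and the aged libraries stood at 1.68, 1.27, 0.340, 1.26 and 0.164 CPM. The lowest aged library held 2 counts. The ratio of the summed levels was 47.0 with a 95% counting interval of 8.12 to 1886, which covers counting error only. Because Fosb passed the filter on low counts only through its aged libraries, no test is read from this comparison, and its fitted log2 change of 4.93 ± 1.04 depends on the prior count. Without young replicate 1, which holds the single young count, that fitted value was 6.49. In experiment 1 the young libraries stood at 0.679, 0.620, 0.556, 0.359 and 0 CPM and the aged ones at 0.123, 1.22, 1.97 and 3.02 CPM. Aged replicate 1 fell among the young libraries, and the fitted change was 1.84 ± 0.92. Here too Fosb passed the filter only through libraries of aged mice, so no test is read from this change. The fitted difference between both age effects was 3.05 ± 1.35, and for the same reason no test is read from it.

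Fos (ENSMUSG00000021250, chromosome 12, 85473890 to 85477273, plus strand) encodes c-Fos, which needs a JUN partner to bind DNA. In experiment 1 it stood at 3.28, 10.1, 13.9, 5.02 and 7.44 CPM in young and 9.73, 11.8, 10.4 and 18.8 CPM in aged libraries. In experiment 2 the young libraries fell into low values of 2.41, 4.57 and 2.30 CPM and high values of 15.4 and 13.4 CPM, while the aged ones were even, at 8.41, 8.04, 6.46, 11.3 and 9.19 CPM. The spread between young libraries was thus wider than the difference of the means. The changes were 0.70 ± 0.39 (edgeR adjusted p = 0.18) and 0.19 ± 0.49 (edgeR adjusted p = 0.88), and in limma-voom with quality weights they were 1.08 and 1.26 and passed (adjusted p = 0.033 and 0.041).

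Atf3 (ENSMUSG00000026628, chromosome 1, 191170296 to 191218039, minus strand) encodes a stress-induced factor of the ATF family that binds DNA alone or with JUN proteins. Its young libraries in experiment 1 stood at 2.83, 2.17, 7.23, 5.86 and 8.46 CPM and its aged ones at 5.54, 15.2, 19.1 and 11.3 CPM. Only aged replicate 1 overlapped the young range. The change was 1.29 ± 0.41 (edgeR adjusted p = 0.022). In experiment 2 the levels were 4.21, 6.93, 1.37, 4.86 and 2.04 CPM in young and 12.4, 11.6, 17.9, 9.03 and 7.96 CPM in aged libraries, with no overlap. The change of 1.60 ± 0.56 did not pass over all genes (edgeR adjusted p = 0.087). The call in experiment 1 was lost in 5 of 23 alternatives. It was lost without young replicate 1, aged replicate 2 or aged replicate 3 (edgeR adjusted p = 0.0613, 0.052 and 0.092). It was also lost in the fit of all 27 libraries (0.069) and without the 3 left-out libraries (0.066). In experiment 2 Atf3 passed in 5 of 24 alternatives, among them DESeq2 (adjusted p = 0.034) and limma-voom with quality weights (0.037). The others were edgeR on only the groups compared (0.029), in the fit of all 27 libraries (0.031) and without auranofin replicate 4 (0.035).

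Egr1 and Nr4a1 are transcription factors outside the AP-1 family. Egr1 (ENSMUSG00000038418, chromosome 18, 34859823 to 34864984, plus strand) encodes a zinc-finger factor that granulosa cells need for the response to luteinizing hormone. It stood at 17.2, 15.5, 22.4, 16.9 and 23.9 CPM in young and 15.2, 32.2, 41.5 and 43.5 CPM in aged libraries of experiment 1. In experiment 2 the young libraries were 23.2, 88.7, 14.5, 19.8 and 23.7 CPM and the aged ones 27.6, 25.98, 37.7, 34.2 and 18.5 CPM. A single library ran against its group each time, the low aged replicate 1 and the high young replicate 2. The changes were 0.80 ± 0.31 (edgeR adjusted p = 0.054) and -0.25 ± 0.47 (0.82), and they differed by -1.02 ± 0.60 (edgeR adjusted p = 0.52). Without aged replicate 1 the change in experiment 1 was 1.05 and passed (adjusted p = 0.0081), and without young replicate 2 the change over both experiments was 0.65 and passed (adjusted p = 0.040).

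Nr4a1 (ENSMUSG00000023034, chromosome 15, 101254269 to 101274795, plus strand) encodes the orphan nuclear receptor NUR77. It stood at 2.38, 2.79, 1.48, 2.87 and 4.96 CPM in young and 2.22, 4.49, 9.36 and 5.54 CPM in aged libraries of experiment 1, and at 1.30, 1.94, 0.799, 4.67 and 5.53 CPM in young and 11.2, 4.06, 21.3, 4.24 and 6.32 CPM in aged libraries of experiment 2. Groups overlapped in both. It was the most variable member within groups, with an SD of 1.18 on the log2 scale. The changes of 0.91 ± 0.53 and 1.72 ± 0.78 did not pass (edgeR adjusted p = 0.20 and 0.19).

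The remaining members act after transcription or in feedback. Zfp36 (ENSMUSG00000044786, chromosome 7, 28376784 to 28380253, minus strand) encodes tristetraprolin, which binds AU-rich 3′ UTRs, among them those of Tnf and of its own mRNA, and recruits the decay machinery. In experiment 1 it stood at 8.14, 11.2, 12.6, 5.62 and 10.1 CPM in young and 35.0, 26.6, 41.9 and 45.7 CPM in aged libraries. In experiment 2 it was 6.62, 7.49, 12.9, 9.62 and 9.35 CPM in young and 25.8, 26.7, 35.9, 24.2 and 29.2 CPM in aged libraries. The lowest aged library held more than the highest young one in both experiments. The changes were 1.99 ± 0.28, or 3.97-fold (edgeR adjusted p = 6.4e-05), and 1.63 ± 0.25, or 3.09-fold (edgeR adjusted p = 0.00095). Zfp36 had the smallest spread within groups of the 10, an SD of 0.39 on the log2 scale, and its calls held in all 23 and 24 alternatives run for these comparisons, with log2 changes from 1.84 to 2.12 and from 1.53 to 1.78.

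Dusp1 (ENSMUSG00000024190, chromosome 17, 26505590 to 26562128, minus strand) encodes a nuclear phosphatase that switches off MAP kinases. Its levels in experiment 1 were 16.2, 32.1, 17.98, 11.2 and 26.8 CPM in young and 12.8, 21.6, 24.0 and 41.7 CPM in aged libraries, and in experiment 2 they were 24.5, 15.7, 4.91, 25.3 and 15.6 CPM against 33.4, 23.1, 44.3, 9.30 and 22.2 CPM. The groups overlapped, and the changes of 0.29 ± 0.39 and 0.63 ± 0.47 did not pass (edgeR adjusted p = 0.59 and 0.47). The log2 ratio of Zfp36 to Dusp1, likewise described without a test, was 0.67 ± 0.59 (SD, n = 4) in aged and -1.09 ± 0.40 (SD, n = 5) in young ovaries of experiment 1, without overlap. In experiment 2 it was 0.26 ± 0.70 (SD, n = 5) against -0.74 ± 1.26 (SD, n = 5) with overlap, since young replicate 3 stood at 1.39. The difference of the means there was 1.00, and 1.54 without that library.

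Ier2 (ENSMUSG00000053560, chromosome 8, 84661331 to 84662852, minus strand) encodes a nuclear protein of the immediate early response. It stood at 3.51, 11.5, 11.9, 4.42 and 12.1 CPM in young and 5.79, 9.08, 9.17 and 14.3 CPM in aged libraries of experiment 1. In experiment 2 it was 8.62, 8.73, 5.48, 7.58 and 7.48 CPM in young and 11.6, 9.73, 8.83, 10.8 and 10.3 CPM in aged libraries, which did not overlap although the lowest aged and the highest young value were close. The changes of 0.17 ± 0.40 and 0.44 ± 0.26 did not pass (edgeR adjusted p = 0.77 and 0.34).

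Aged and young libraries did not overlap for 2 members in experiment 1, Junb and Zfp36, both with aged higher. Of all genes 14.0% did so with aged higher and 13.6% with aged lower. In experiment 2 they did not overlap for Junb, Ier2, Zfp36 and Atf3, and for Fosb with its 1 young count, all with aged higher, against 6.46% of all genes with aged higher and 4.70% with aged lower. With both experiments averaged in 1 fit of 27 libraries, 5 of 10 members were called upwards. Of all 17484 genes 17.5% rose and 17.8% fell, 35.3% in all. Fosb is 1 of the 5, with few young counts again, and it entered this fit only through libraries of aged mice. Its change of 3.34 ± 0.70 is therefore a description, and no test is read from it. Zfp36 changed by 1.80 ± 0.19, Junb by 2.40 ± 0.34 and Atf3 by 1.44 ± 0.36 (edgeR adjusted p at most 0.0028). Nr4a1 changed by 1.30 ± 0.50 (edgeR adjusted p = 0.042), a call that was lost in 17 of 37 alternatives, the replicate block (0.11) and leaving out aged replicate 3 of either experiment (0.12 and 0.11) among them. Fos, Jun, Egr1, Ier2 and Dusp1 did not pass, with changes from 0.07 to 0.44. Fos passed in 1 of 37 alternatives, limma-voom with quality weights, where its change was 1.13 (adjusted p = 0.0021). No member was called for a difference in age effect between experiments (edgeR, 0 of 17484 genes called). Fosb alone had an unadjusted p under 0.05, and no test is read from it for the reason given above.

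**Figure D2:**
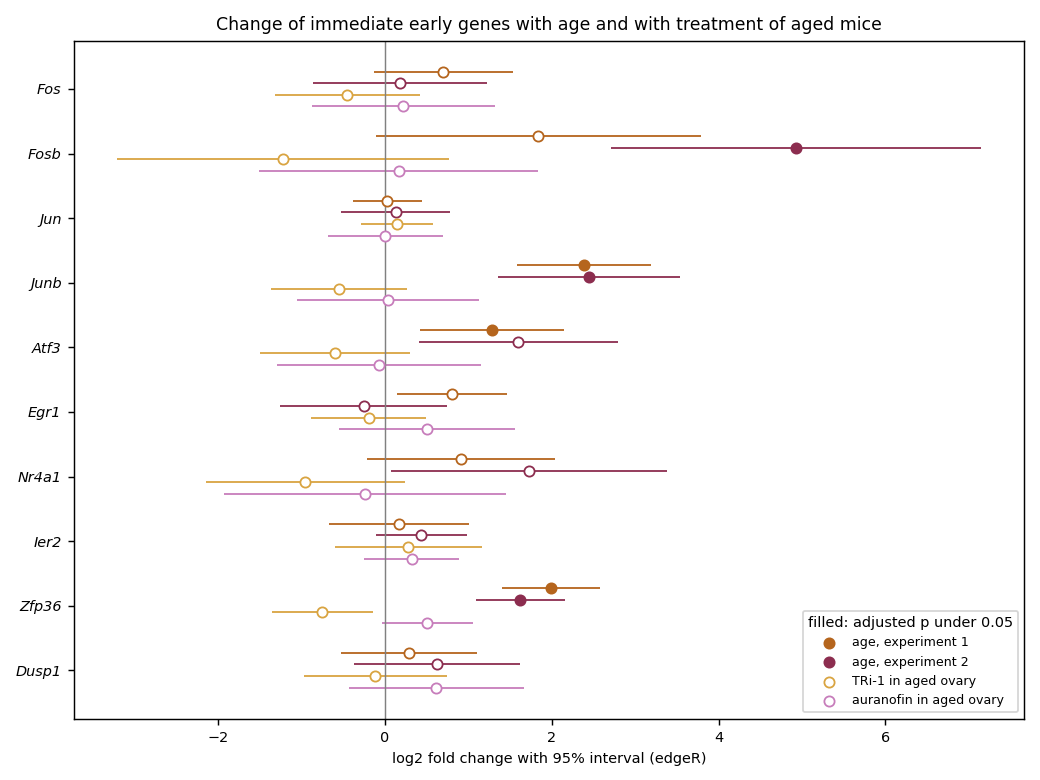
Log2 fold change (horizontal axis) of each gene with its 95% interval for age in each experiment and for TRi-1 or auranofin in aged mice, filled where the edgeR adjusted p was under 0.05. Filled points are found only among the age comparisons, at Junb and Zfp36 in both, Atf3 in experiment 1 and Fosb in experiment 2.

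The ovaries also differed in makeup, and in whole tissue fewer cells of a type and less RNA per cell cannot be told apart. All 5 macrophage markers, all 5 T cell markers and all 5 B and plasma cell markers rose with age in both experiments, as did 3 of 3 tested neutrophil markers in experiment 1 and 3 of 5 in experiment 2. No marker of these lists was at 0 in an aged group. In young libraries of experiments 1 and 2 the T cell sums ran from 7.13 to 12.7 and from 3.81 to 15.8 CPM. Those of B and plasma cell markers ran from 10.3 to 23.9 and from 10.6 to 40.1 CPM. Which markers entered a test only through aged libraries was not examined. All 6 oocyte markers fell in experiment 1 and 4 of 5 tested in experiment 2, and 4 of 5 and 2 of 5 granulosa markers fell. In the TRi-1 libraries the macrophage sum ran from 2425 to 5542 CPM, and the neutrophil sum from 77.8 to 980.0 CPM against 637 to 1959 CPM in untreated aged libraries. Within groups, library by library, the macrophage markers had a median correlation of 0.21 with the mean of the members and the B and plasma cell markers one of -0.31, over 27 libraries that share their depth and scaling. The part of cell makeup in the changes of the members was not tested. All 5 red cell markers rose in experiment 1 and 1 of 5 in experiment 2, and with haemoglobin genes left out the same number of members passed in each age comparison.

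The second comparison asks whether thioredoxin reductase inhibitors alter these genes in aged ovary. No member passed the test with either drug. For TRi-1 against untreated aged ovary 0.418% of all genes tested were called and 1 member, Zfp36, had an unadjusted p under 0.05. For auranofin 0.0184% of genes were called and 0 members had such a p. DESeq2 and limma-voom also called 0 members in both. No member separated the treated from the untreated aged libraries completely, where 4.50% and 4.57% of all genes did so upwards and downwards with TRi-1, and 1.99% and 1.54% with auranofin.

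With TRi-1, Zfp36 stood at 32.8, 16.3, 24.4 and 17.1 CPM, against 26.6 to 45.7 CPM in untreated aged libraries. Of the treated libraries only replicate 1 reached the untreated range. The change was -0.75 ± 0.28 (95% interval -1.35 to -0.15, edgeR adjusted p = 0.20). Junb stood at 53.0, 32.9, 45.8 and 22.4 CPM in the TRi-1 group, within the untreated range, and its change was -0.55 ± 0.38 (95% interval -1.36 to 0.27). Atf3 stood at 10.7, 7.55, 7.52 and 8.58 CPM, a change of -0.60 ± 0.42, and Nr4a1 at 5.80, 0.921, 2.09 and 2.61 CPM, a change of -0.95 ± 0.56. Fosb at 1.61, 0.184, 0.571 and 0.434 CPM changed by -1.22 ± 0.94, with the widest interval of the 10, from -3.20 to 0.77. Its counts were low, and this change is a description without a test. The other 5 had log2 changes between -0.45 and 0.28, that of Fos being the lowest and that of Ier2 the highest. The median of the members was -0.50 beside -0.003 over all genes tested, a description without a test.

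In the auranofin group Zfp36 stood at 64.1, 34.0, 34.4 and 30.6 CPM, so that the lowest treated library lay above 4 of the 5 untreated aged ones, and its change was 0.51 ± 0.26 (95% interval -0.04 to 1.06, edgeR adjusted p = 0.75). Junb stood at 159.5, 144, 69.5 and 19.5 CPM, a change of 0.04 ± 0.51 (95% interval -1.05 to 1.13). Replicate 4 lay below every untreated aged library for Junb, Jun, Atf3 and Nr4a1, at 19.5, 28.5, 2.16 and 0.416 CPM, whereas its Zfp36 level did not. The same library had the highest sums of the 4 for macrophage (5531 CPM), neutrophil (5483 CPM), B and plasma cell (884 CPM), granulosa (317 CPM) and T cell (116 CPM) markers. It was also the highest for endothelium, red cell and hepatocyte markers. Its sums of stroma and theca (1768 CPM) and smooth muscle (1020 CPM) markers were the lowest. The part of this makeup in its levels was not tested. Dusp1 stood at 52.5, 55.5, 42.4 and 13.1 CPM, a change of 0.62 ± 0.49 (95% interval -0.42 to 1.66). The other changes lay between -0.24, for Nr4a1, and 0.51, for Egr1. Zfp36 was lower than untreated aged with TRi-1 and higher with auranofin, and the difference of both effects was 1.25 ± 0.38 (edgeR adjusted p = 0.23). It did not pass, where 0.0172% of all genes did, all upwards.

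Each treated group was also set against the young libraries of its experiment, which are the same controls as in the age comparison. TRi-1-treated aged ovaries still had higher Junb, by 1.84 ± 0.38 (edgeR adjusted p = 0.0024), and higher Zfp36, by 1.24 ± 0.28 (edgeR adjusted p = 0.0043), without overlap, where 10.9% of all genes rose and 10.1% fell, 21% in all, and 11.2% lay higher and 10.7% lower without overlap. Atf3 was at 0.69 ± 0.41 and did not pass (edgeR adjusted p = 0.26). Auranofin-treated aged ovaries had higher Zfp36, by 2.14 ± 0.27 (edgeR adjusted p = 0.00028), and Junb, by 2.49 ± 0.53 (edgeR adjusted p = 0.0086), where 5.42% of all genes rose and 3.56% fell, 8.98% in all. Fosb held 57 counts in the treated and 1 in the young libraries, a summed ratio of 52.5 with a 95% counting interval of 9.06 to 2112, and no test is read from it for the reason given above. Junb overlapped here through auranofin replicate 4, while Ier2 and Zfp36, and Fosb with its 1 young count, did not overlap, against 5.28% of genes that lay higher and 4.26% that lay lower. The log2 ratio of Junb to Jun was -0.45 ± 0.59 (SD, n = 4) with TRi-1 and 0.27 ± 0.84 (SD, n = 4) with auranofin, and both ranges overlapped those of the untreated aged libraries. That of Zfp36 to Dusp1 was 0.02 ± 0.33 and 0.13 ± 0.84 (SD, n = 4 each), again with overlap.

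**Figure D3:**
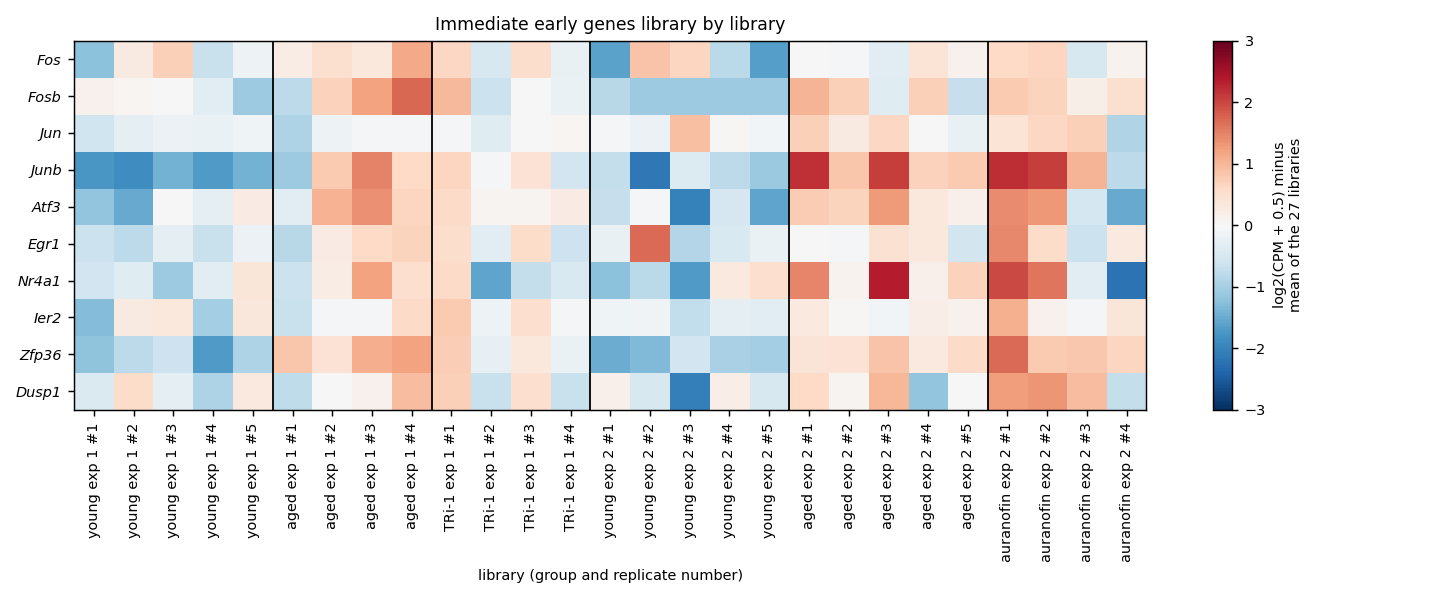
Level of each gene (rows) in each of the 27 libraries (columns, by group and replicate number), as log2(CPM + 0.5) minus the gene's mean over all libraries, red above and blue below. Whole columns are paler or darker, such as aged replicate 1 of experiment 1, which was lowest in its group for 9 of 10 genes, and TRi-1 replicate 1, which was highest in its group for 8.

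Some libraries were high or low in their group for most members. Aged replicate 1 of experiment 1 was the lowest of its group for 9 of 10 members, the exception being Zfp36, and aged replicate 4 was the highest for 7. TRi-1 replicate 1 was the highest for 8 members and TRi-1 replicate 2 the lowest for 6. Auranofin replicate 1 was the highest for 7 and replicate 4 the lowest for 6. After the group means were removed, 43 of the 45 pairs of members had a positive correlation over the 27 libraries, with a median r of 0.36 and a range from -0.03 to 0.79. The median was 0.55 within experiment 1 and 0.22 within experiment 2, and 0.28 without the 2 libraries farthest from the median of the first gene of each pair. The libraries share depth and scaling, and the same count over pairs of all genes was not computed.

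By permutation of libraries within groups, 8 of 45 pairs passed by Pearson's r and 8 by Spearman's rho at a p adjusted over the 45 pairs. Jun and Junb had r = 0.79 and rho = 0.71 (permutation p = 0.0007 and 0.0009, adjusted 0.0136 and 0.0142), and r was 0.63 without the 2 farthest libraries. Libraries high for one were thus high for the other within a group. Dusp1 and Nr4a1 had r = 0.71 and rho = 0.69 (permutation p = 0.0003 for both, adjusted 0.0117 and 0.0139), with 0.58 without the 2 farthest. Nr4a1 was also correlated with Junb at 0.69 and with Atf3 at 0.69 (rho 0.62 for both, permutation p adjusted at most 0.0391), and Egr1 with Atf3 at 0.64 and with Ier2 at 0.55 (rho 0.62 for both, permutation p adjusted at most 0.0229). The last 2 pairs were Ier2 and Dusp1 at 0.51 and Dusp1 and Atf3 at 0.55, and the r of Dusp1 and Atf3 was 0.13 within experiment 1 and 0.75 within experiment 2. Dusp1 and Atf3 did not pass by rho (0.47, permutation p adjusted 0.0749), while Fos and Ier2 passed by rho (0.57, permutation p adjusted 0.0391) and not by r (0.49, adjusted 0.0574). Fos had an r of -0.03 with both Dusp1 and Nr4a1.

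**Figure D4:**
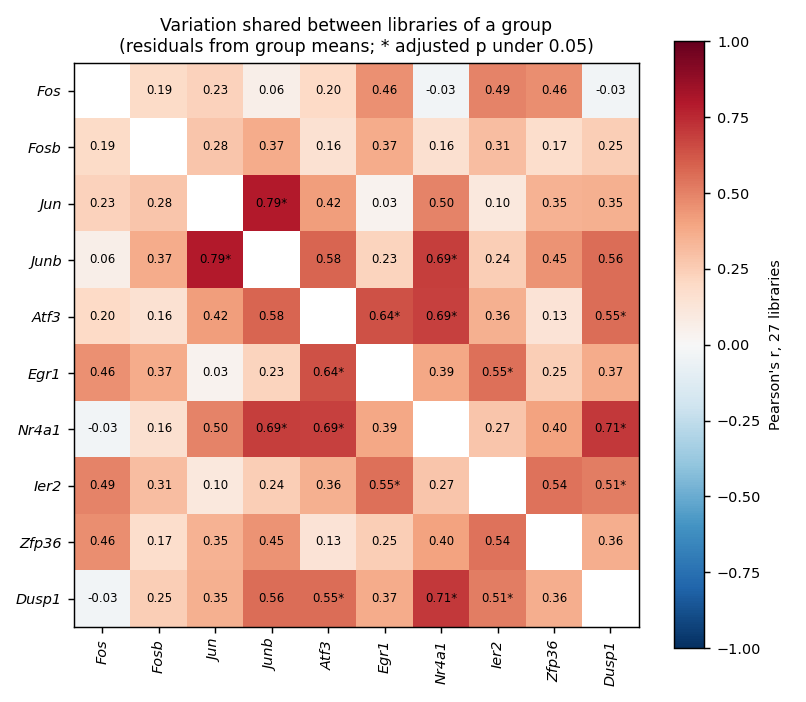
Pearson's r of each pair of genes over 27 libraries, computed on log2 CPM residuals from the 6 group means, from -1 (blue) to 1 (red), with an asterisk where the permutation p adjusted over 45 pairs was under 0.05. The highest value is 0.79 for Jun and Junb, and the lowest are -0.03 for Fos with Dusp1 and with Nr4a1.

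Among 10799 genes averaging 5 CPM or more, those whose residuals were most like the mean of the members included Cblb (r = 0.82, rho = 0.81), Chchd4 (0.80, 0.80), Tgif1 (0.80, 0.76), Tnfaip2 (0.79, 0.75) and Sh3kbp1 (0.78, 0.71), over 27 libraries. These r are descriptions of libraries that share depth and scaling, and the median over all ranked genes was -0.02. Of the marker lists, hepatocyte markers had a median r of 0.44 and stroma and theca markers one of 0.30.

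Genes of the same families and pathways were examined as lists. Their counts are to be read beside the 18.5% of all genes that rose and 16.4% that fell in experiment 1. In experiment 2 these shares were 5.86% and 4.59%. Which listed genes entered a test only through aged libraries, as Fosb did, was not examined. Rises of genes with low young levels, and the counts and medians that include them, are therefore descriptions. Of 10 other AP-1 subunits tested, 8 rose with age in experiment 1 and 3 in experiment 2, and none fell, with median log2 changes of 1.42 and 0.39. Maff, a small MAF protein, rose by 1.76 ± 0.32 and 2.28 ± 0.37, and Batf, an AP-1 factor of lymphocytes and myeloid cells, by 2.24 ± 0.43 and 2.58 ± 0.43. Batf2 rose in experiment 1 by 3.85 ± 0.72 and Fosl1, which encodes FRA1, in experiment 2 by 4.31 ± 1.06. Without the 3 left-out libraries, 4 of these 10 passed in experiment 1. Of 5 other EGR, NR4A and NAB genes, Egr2 passed, at 2.46 ± 0.60 and 2.84 ± 0.56 (medians 0.19 and 0.74).

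Of 31 other immediate early genes tested, 10 rose and 2 fell in experiment 1 and 9 rose and 0 fell in experiment 2 (medians 0.80 and 0.65). Trib1, a pseudokinase, rose by 1.94 ± 0.28 and 1.69 ± 0.28. Ier5, a relative of Ier2, rose by 1.66 ± 0.19 in experiment 1, and Cebpd and Klf2, both transcription factors, by 1.89 ± 0.32 and 1.44 ± 0.26 in experiment 2. Rgs2, a regulator of G-protein signalling that gonadotropins induce in follicles, fell by 2.72 in experiment 1, from a mean of 1880.2 to 283 CPM, and did not pass in experiment 2 (-1.64 ± 0.58, edgeR adjusted p = 0.089). Of 10 other dual-specificity phosphatases 5 rose in experiment 1, Dusp16 (0.69 ± 0.17), Dusp8 (1.25 ± 0.37) and Dusp3 (0.68 ± 0.23) having the smallest p, and 0 of 11 passed in experiment 2 (medians 0.69 and 0.63, 3 with an unadjusted edgeR p under 0.05, 0 with DESeq2 and 1 with limma-voom). The count of 5 fell to 1 without the 3 left-out libraries and to 2 or 3 without 7 of the single libraries.

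The list of tristetraprolin relatives and of mRNAs it is known to destroy had 4 rises and 1 fall among 8 tested in experiment 1 and 6 rises in experiment 2 (medians 2.99 and 4.09). Il1b rose by 6.44 ± 0.69 and 6.52 ± 0.75 and the chemokine Ccl3 by 4.87 ± 0.66 and 4.10 ± 0.60. Tnf rose by 4.15 ± 1.07 in experiment 1, and Ptgs2, which encodes cyclooxygenase 2, by 5.71 ± 1.03 in experiment 2. Macrophages and neutrophils make these mRNAs, and their markers rose in the same comparisons. The part of these cells in the changes was not tested. Of 18 upstream kinases and SRF cofactors, 3 rose and 2 fell in experiment 1 and 1 rose in experiment 2, shares no higher than those of all genes (medians 0.37 and 0.24). Mrtfa, a cofactor of SRF, rose by 1.06 ± 0.25 and 1.27 ± 0.27, Elk3 by 1.25 ± 0.18 in experiment 1, and Mapk8, which encodes the kinase JNK1, fell by 0.71 in experiment 1.

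Heat shock genes and ovulation genes stand for other stimuli. Of 13 heat shock genes 3 rose and 3 fell in experiment 1 and 1 rose in experiment 2 (medians -0.33 and 0.30). Hspb1 rose by 0.77 ± 0.19 and 1.06 ± 0.26, Hspa1a, the inducible HSP70, by 2.00 ± 0.41 in experiment 1, and the mitochondrial chaperonin Hspe1 fell by 1.08 in experiment 1. Without the 3 left-out libraries 2 heat shock genes passed there. Of the genes that luteinizing hormone induces at ovulation, 0 of 7 passed in experiment 1 (edgeR, 0 with an unadjusted p under 0.05, and 1 with limma-voom) and 1 of 11 in experiment 2, Runx2, which fell by 2.11 (medians 0.003 and -0.16). With TRi-1 and with auranofin 0 genes of these 8 lists passed in edgeR, with 0 to 7 genes a list at an unadjusted p under 0.05. DESeq2 called 1 other AP-1 subunit with each drug and 1 gene of the tristetraprolin list with TRi-1, and limma-voom called 1 of that list with TRi-1.

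**Figure D5:**
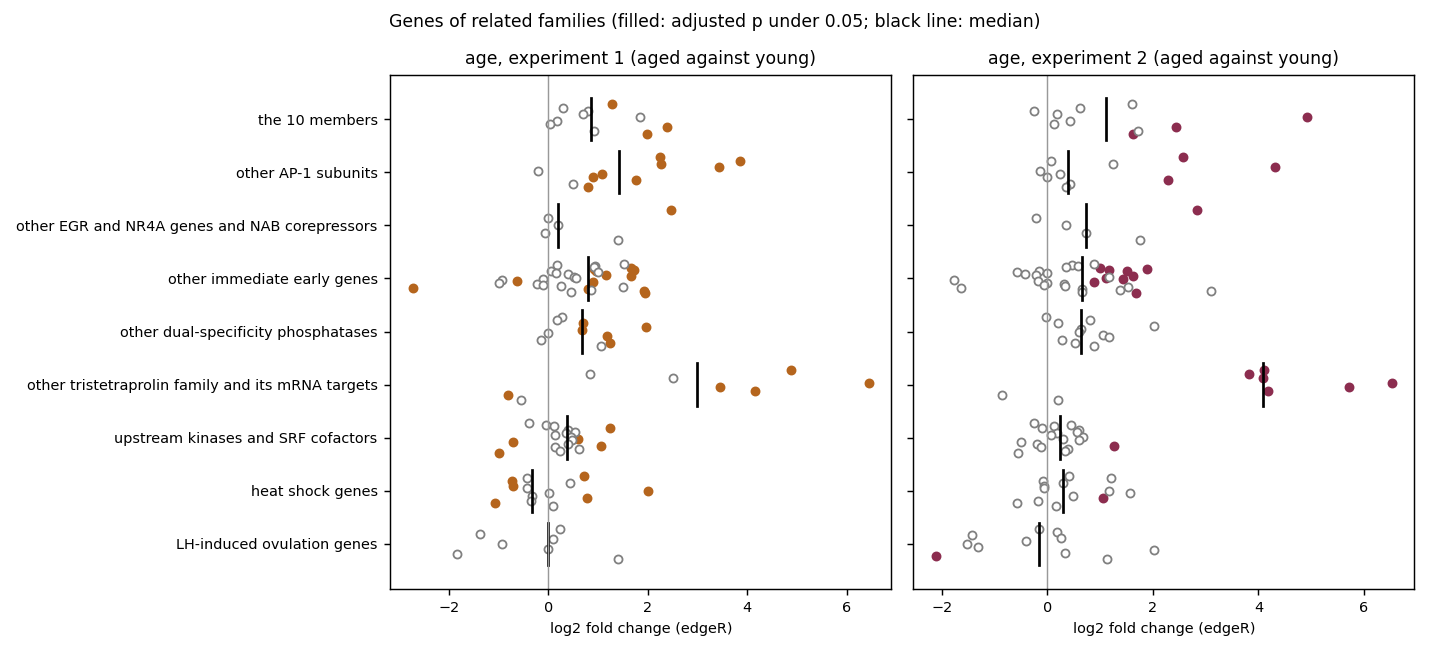
Log2 fold change (horizontal axis) with age of each tested gene of the members and of 8 related lists in experiment 1 (left) and experiment 2 (right), filled where the edgeR adjusted p was under 0.05, with a black line at the median of each list. The medians of the members lie at 0.86 and 1.11, and the list of tristetraprolin relatives and targets lies highest, at 2.99 and 4.09.

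Some members overlap other genes, and the strand of counting is not given in the sources used here. Annotated exons of Prdx2 and Junb overlap on opposite strands, although the coding transcripts of both do not overlap. Prdx2 changed by -0.28 ± 0.15 and -0.21 ± 0.20 with age and passed in neither experiment. Exons of Ergic1 likewise overlap Dusp1 on the opposite strand, outside the coding transcripts, and Ergic1 rose by 1.03 ± 0.17 in experiment 1. The antisense gene Junos overlaps Jun and held 511 counts over the 27 libraries.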

How the data were processed

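Per the labels, the 27 libraries were made with a QuantSeq kit from ovary RNA. RSEM 1.2.3 and DESeq2 appear in the submitters' processing notes together with mm10, with no role stated. The deposited table holds whole-number counts per gene for 51789 Ensembl identifiers, and 51596 of these carried a GENCODE M21 symbol. The strand of counting is not given in the sources used here. The table held 0 columns of other samples. Library totals ran from 6460903 to 14814381 counts, and intervals on counts cover counting error only. The 48 pairs of libraries within groups differed by more than sampling noise (chi-square per gene 20.5 to 208).

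Counts were tested with edgeR 4.0.16 in R 4.3.3 (TMM, filterByExpr, quasi-likelihood F test, default prior count) in 1 fit per experiment. Age over both experiments and differences between experiments came from 1 fit of all libraries. P-values were adjusted over all genes tested by Benjamini-Hochberg at 0.05. Each standard error is the absolute log2 change over the root of its F statistic. Levels are CPM on TMM library sizes of all 27 libraries. Pairs of genes were tested by 100000 permutations within groups. Log2 CPM for the correlations used a prior count of 2. All 10 members are named, and genes of other lists by their p within a list. Members and lists were chosen with earlier results of these data known, and the ratios, the motif TGACG and some libraries left out were chosen after values were seen. The alternatives tried were DESeq2 1.42.0, limma-voom (limma 3.58.1), RLE scaling, other filters, other sets of libraries, a replicate block and leaving out each library. The code was tested on simulated data. Promoters came from RefSeq (GRCm38.p6). One gene that the rule on likeness names is not reported here.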

Additional observations from a re-analysis of the deposited data

Results flagged for a closer look

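Of 60 combinations of a member and a group, 5 had 1 library far from the others of its group by Dixon's test, and chance flags about 1 in 20. Jun in aged replicate 1 of experiment 1 stood at 27.8 CPM, with 48.3 CPM in the nearest library. Jun in young replicate 3 of experiment 2 stood at 99.6 CPM, with 55.2 CPM in the nearest. Egr1 in young replicate 2 of experiment 2 stood at 88.7 CPM, with 23.7 CPM in the nearest. Zfp36 in auranofin replicate 1 stood at 64.1 CPM, with 34.4 CPM in the nearest. Fosb in young replicate 1 of experiment 2 stood at 0.1003 CPM, from 1 count, while the other 4 libraries were at 0.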

How the results depend on the processing

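Of 606 values of a member's log2 change under alternatives other than leaving out 1 library, 573 kept their direction and side of the threshold, and 955 of 1014 did so when 1 library was left out. Junb and Zfp36 kept their calls with age in every alternative run. With limma-voom, 5 members passed for age in experiment 1, 5 in experiment 2 and 7 in auranofin-treated against young ovary. These changes turned in sign, none past the threshold in either direction. Jun with age in experiment 1 was -0.00676 with RLE size factors, -0.00563 with DESeq2, -0.00523 with the 5 CPM filter and -0.045 without the 3 left-out libraries. Egr1 with age in experiment 2 was 0.21 in limma-voom and 0.049 with the replicate block. With auranofin, limma-voom gave 0.30 for Atf3 and 0.35 for Nr4a1, the 5 CPM filter gave -8.47e-05 for Jun, and the replicate block gave -0.14 for Jun and -0.064 for Junb. Without young and auranofin replicates 3, auranofin gave -0.14 for Jun, 0.19 for Atf3 and 0.046 for Nr4a1. The cause was not tested.

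Leaving out each library in turn left 2 to 4 members called for age in experiment 1, 3 to 4 in experiment 2, 4 to 5 over both, 2 in TRi-1-treated and 3 to 4 in auranofin-treated against young ovary, and 0 for either drug or difference. Fosb is counted for experiment 2, for both and for auranofin-treated ovary, as a description only. Values that crossed 0 ranged as follows. With age in experiment 1, Jun ran from -0.084 to 0.21, Ier2 from -0.093 to 0.36 and Dusp1 from -0.081 to 0.51. In experiment 2, Fos ran from -0.054 to 0.60 and Egr1 from -0.45 to 0.48. With TRi-1, Jun ran from -0.027 to 0.26, Egr1 from -0.43 to 0.022 and Dusp1 from -0.35 to 0.26. With auranofin, Fosb ran from -0.10 to 0.50, Jun from -0.14 to 0.27, Junb from -0.29 to 0.39, Atf3 from -0.49 to 0.27 and Nr4a1 from -0.84 to 0.30. The difference in log2 ratio with auranofin ran from -0.42 to 0.15 for Junb to Jun and from -0.50 to 0.14 for Zfp36 to Dusp1.

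The labels do not say whether replicate numbers pair the libraries, and correlations between libraries cannot settle it. Same-numbered libraries had a median correlation of -0.06 over 12 pairs in experiment 1, and of 0.02 over 13 pairs in experiment 2. Their range in experiment 2 was -0.25 to 0.43, against -0.40 to 0.43 over 52 pairs with different numbers. With the replicate block, 3 members passed for age in each experiment, 4 over both, 0 for either drug, and 2 and 3 for TRi-1-treated and auranofin-treated against young ovary. Depth limits Fosb most, with 1 count over the 5 young libraries of experiment 2.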
